A study of Homo sapiens with 8 samples.

Results

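The genes that license and run DNA replication were followed in MDA-MB-231 cells, an established estrogen receptor-negative human breast cancer line, after exposure to CML. They were 52 of the 17649 genes in the deposited table, chosen by name for their roles at replication origins and forks: the origin recognition complex, the loading factors, the MCM helicase with its partners CDC45 and GINS, the factors that fire origins, the polymerases, the sliding clamp with its loader, the enzymes that finish Okazaki fragments, RPA and the fork protection proteins. CML (carboxymethyllysine) is an advanced glycation end product, a compound formed by the reaction of sugars with lysine in proteins. The study calls it a candidate ligand of the receptor RAGE. RNA-Seq libraries were made from 4 control cultures and from 4 that had received CML at 1 μM for 48 hours, a group titled NCML in the sample labels. All cultures were of the same line and were kept in low-glucose medium in flasks, and the controls received PBS. One cell line, grown outside an animal, is a model of tumor cells alone, with no stroma, immune cells or blood supply. Nothing in the sample labels says whether the 4 libraries of a group came from separately handled cultures on separate days, so the p-values below measure only the spread between these libraries, which may be technical.

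Replication starts in G1, when the origin recognition complex (ORC1 to ORC6), CDC6 and CDT1 load the ring of MCM2 to MCM7 onto DNA in an inactive form, a step called licensing, and geminin (GMNN) blocks CDT1 once S phase has begun so that no origin is licensed again. Origins fire when the kinase CDC7 with its activator DBF4, and the cyclin-dependent kinases, allow CDC45 and the GINS complex to join MCM2-7. The resulting helicase, called CMG after CDC45, MCM and GINS, unwinds the fork. Polymerase α with primase starts each strand, polymerases ε and δ extend the leading and lagging strands on the PCNA clamp, and RPA coats the unwound DNA. Many of these genes are transcribed at the passage from G1 to S phase under the control of E2F transcription factors, and their products are widely used to mark dividing cells.

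The promoters of these genes are shown first, since letters of a kind that E2F binds are a feature many of them share. RefSeq start sites of the GRCh38.p14 assembly gave windows of 300 bases, from 250 before to 50 after a start, for 44 of the 52 genes (58 windows). The letters TTTCCCGC, TTTCGCGC, TTTGCCGC and TTTGGCGC, searched on both strands with overlapping matches counted separately, were found in 22 of the 44 genes, or 50%. They were present in 3.31% of all 35116 windows and in 6.74% of the 9815 genes that had a window and averaged 1 CPM or more. The stretches below cover 60 bases around the match nearest to the start of 4 of the MCM genes, of the loading factor CDC6 and of the clamp PCNA, written 5′ to 3′ on the strand of the gene with the E2F letters in capitals.

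MCM2, chr3:127598387-127598446, plus strand: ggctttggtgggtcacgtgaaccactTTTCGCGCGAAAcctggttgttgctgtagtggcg
MCM3, chr6:52284713-52284772, minus strand: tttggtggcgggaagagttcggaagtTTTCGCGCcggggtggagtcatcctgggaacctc
MCM6, chr2:135876496-135876555, minus strand: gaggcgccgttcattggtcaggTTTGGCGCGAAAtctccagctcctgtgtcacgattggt
MCM7, chr7:100101373-100101432, minus strand: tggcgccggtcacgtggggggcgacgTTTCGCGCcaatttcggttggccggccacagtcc
CDC6, chr17:40287860-40287919, plus strand: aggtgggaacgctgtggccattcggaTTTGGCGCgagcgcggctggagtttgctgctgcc
PCNA, chr20:5126648-5126707, minus strand: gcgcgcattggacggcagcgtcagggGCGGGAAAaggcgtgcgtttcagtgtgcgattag

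In MCM2 and MCM6 the capitals hold a match on each strand, overlapping by 4 bases. The PCNA match lies on the opposite strand, and those of MCM3, MCM7 and CDC6 run along the gene. Each of these is a match of letters in a window and was not tested as a binding site. Other forms of an E2F site were not searched. CDC45, the gene with the largest change with CML among the 52, had none of the letters searched in its 3 windows. One of these windows is given whole below, beside that of RPA1, the gene with the next smallest p, which also lacked them, with the letters CCAAT (or ATTGG, the same letters on the other strand) in capitals. CCAAT was found in 25 of the 44 genes, or 56.8%, against 34.6% of all windows and 43.8% of the genes averaging 1 CPM or more.

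CDC45, chr22:19479670-19479969, plus strand: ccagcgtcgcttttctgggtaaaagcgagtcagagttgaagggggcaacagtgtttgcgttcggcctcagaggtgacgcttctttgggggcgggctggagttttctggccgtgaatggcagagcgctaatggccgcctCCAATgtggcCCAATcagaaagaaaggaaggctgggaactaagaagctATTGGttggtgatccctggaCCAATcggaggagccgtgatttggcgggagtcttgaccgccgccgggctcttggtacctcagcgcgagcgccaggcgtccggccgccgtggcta
RPA1, chr17:1829755-1830054, plus strand: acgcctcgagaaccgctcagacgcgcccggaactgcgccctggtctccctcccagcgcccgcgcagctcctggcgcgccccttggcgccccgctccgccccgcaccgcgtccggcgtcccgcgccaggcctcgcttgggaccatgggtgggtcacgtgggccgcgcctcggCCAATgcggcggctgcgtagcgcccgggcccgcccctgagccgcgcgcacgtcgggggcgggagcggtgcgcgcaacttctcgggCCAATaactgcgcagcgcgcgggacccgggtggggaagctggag

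The CDC45 window held 4 CCAAT matches, starting 112, 102, 64 and 44 bases before the start site, and the RPA1 window held 2. The CDC45 window also held TTTGGCGGG, which is close to the E2F letters but was not among those searched. TTTGAA or TTCGAA, core letters of the element through which many G2/M genes are repressed in resting cells, were in the windows of 3 of the 44 genes (DBF4, POLE3 and MCM6), or 6.82%, against 16.4% of all windows.

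Values are in CPM, reads scaled by the authors to a common library size. The libraries held an estimated 16559914 to 17729518 reads in control cells and 16161801 to 18954731 reads in CML-exposed cells, so that 1 read was worth 0.0535 to 0.0622 CPM. As MDA-MB-231 cells do, the cultures had high VIM (4014 to 4243 CPM), CD44 and AXL, and among luminal markers PGR and FOXA1 reached at most 0.114 and 0.0622 CPM and CDH1 stayed under 1 CPM. Other luminal and epithelial markers were expressed, with KRT18 at 310 to 355 CPM, KRT8 at 183 to 239, ERBB2 at 44.1 to 54.4, EPCAM at 12.7 to 16.3 and GATA3 at 3.47 to 5.61. Markers of leukocytes (PTPRC), endothelium (PECAM1) and fibroblasts (PDGFRB) were at most 0.650, 3.84 and 4.88 CPM, while CD68, on the list for macrophages, was at 152 to 181 CPM. The share of mitochondrial transcripts was 2.11% to 2.42% in control cells and 1.87% to 2.23% with CML. Libraries of a group differed with the GC content of the gene. Over 12978 genes the rank correlation (Spearman's rho) between a gene's GC content and its deviation in 1 library from the other 3 of its group was −0.590 in control and −0.532 in CML replicate 4, and 0.104 to 0.504 in control and 0.205 to 0.295 in CML replicates 1 to 3, a description across genes that share a library.

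Of the 52 genes, CDC45 was the one that passed the test. It is the helicase cofactor whose arrival with GINS turns a licensed MCM ring into an active fork. Its transcript averaged 7.50 ± 0.334 CPM in control cells and 10.4 ± 0.417 CPM with CML (SD, n = 4), which is 39.2% higher. A higher mean with CML was seen in 49 of the 52 genes, by small amounts. Groups were compared gene by gene with limma on log2(CPM + 1), with Benjamini-Hochberg adjustment over all 17649 genes and a false discovery rate (FDR) of 0.3, the level the study set for this experiment. At that level 1 of the 52 genes passed, or 1.92%, where 0.895% of all genes passed in either direction and 0.674% passed as higher with CML. At an adjusted p of 0.05, 0 of the 52 and 0% of all genes passed in limma. Without adjustment, 10 of the 52 genes (19.2%) had a p under 0.05 and a higher mean with CML, against 4.77% of all genes (7.66% in either direction). The groups did not overlap for 5 genes (9.62%), all higher with CML, against 2.5% of all genes and 3.04% of those averaging 1 CPM or more.

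The median difference of the 52 genes was 0.08 on the log2(CPM + 1) scale, with a range from −0.02 to 0.43. Over all genes the median was 0.0066, with 53.5% higher, and over the 13047 genes that averaged 1 CPM or more it was 0.015, with 58.8% higher. All 52 genes reached that level. Their summed level was 1441, 1440, 1439 and 1479 CPM in control replicates 1 to 4 and 1523, 1546, 1527 and 1530 CPM in CML replicates 1 to 4. The sum thus stood at 1450 ± 19.5 CPM in control cells and 1531 ± 10.3 CPM with CML (SD, n = 4), which is 5.62% higher, and the 2 groups did not overlap. The authors' scaling left the totals over all rows unequal, at 986730 to 1010400 CPM in control and 1002960 to 1014120 CPM in CML libraries. The summed levels are therefore not shares of a common total. In cultures measured in bulk, a larger share of cells in S phase and more of each transcript per cell cannot be told apart. When every library was centred on its median gene, the number of higher genes was 44 and the median 0.062, so that part of the count of 49 depends on the scaling. Turned back into CPM at the control mean, the upper 95% limit of the difference lay below a 1.5-fold rise for 46 of the 52 genes and below a 1.25-fold rise for 33.

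**Figure D1:**
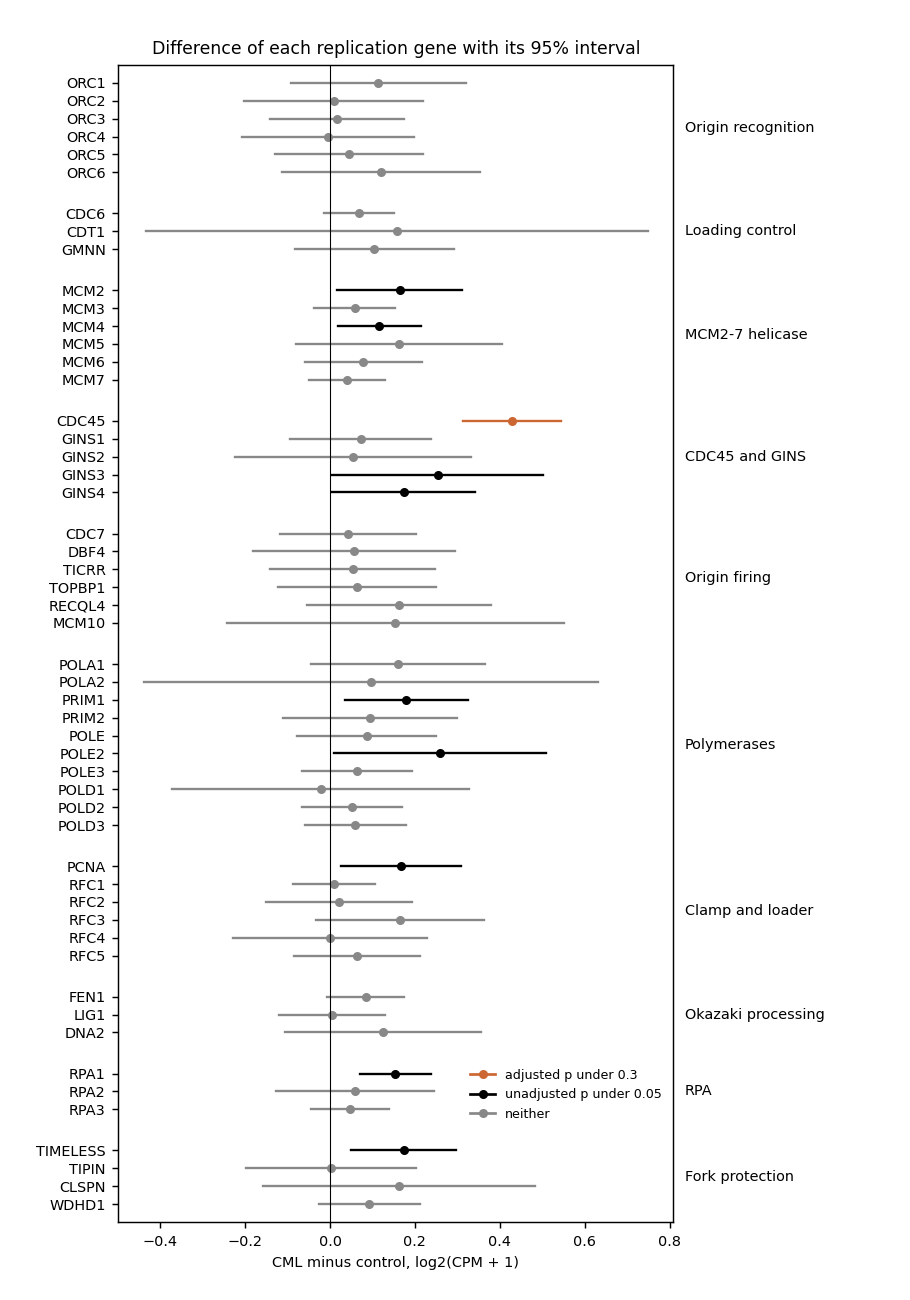
Difference between CML-exposed and control cells for each of the 52 genes, on the log2(CPM + 1) scale (horizontal axis), with its 95% interval from limma (n = 4 per group). Genes are grouped by role. CDC45, at 0.43, is the only gene in orange (adjusted p under 0.3), the 9 genes in black had an unadjusted p under 0.05, and 49 of the 52 points lie to the right of 0.

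Among the partners of the MCM ring, all 5 genes had a higher mean with CML (median 0.17, 1 past the FDR). CDC45 (ENSG00000093009.9, GRCh38 chr22:19479466-19520612) stood at 7.39, 7.45, 7.20 and 7.98 CPM in control replicates 1 to 4 and at 10.7, 9.90, 10.4 and 10.8 CPM in CML replicates 1 to 4. Every CML library was above every control library, with a gap of 1.92 CPM between the groups. The difference was 0.43 on the log2(CPM + 1) scale (SE 0.049, 95% interval 0.31 to 0.54; limma with Benjamini-Hochberg adjustment, adjusted p = 0.0856). Behind these values were 119 to 185 reads per library, or 509 in control and 714 in CML-exposed cells. The ratio of the pooled CPM was 1.39, with an exact 95% interval of 1.24 to 1.56 for counting error alone. The coefficient of variation between replicates was 4.45% in control cells and 3.99% with CML, while counting alone gives 8.09% at this depth, so that the libraries of a group lay closer together than counting error would place them. In the other settings tried, all 17 of them, CDC45 passed the FDR, with limma adjusted p-values from 0.0086 to 0.252. An unnamed gene (ENSG00000287652) overlaps its exons on the opposite strand, and whether the counting used strand is not given in the sources used here.

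The GINS complex is formed by 4 subunits and holds CDC45 to MCM, and 0 of its genes passed limma's FDR (2 of the 4, GINS3 and GINS4, had an unadjusted p under 0.05). GINS3 averaged 3.53 ± 0.610 CPM in control cells and 4.37 ± 0.341 CPM with CML (SD, n = 4), and the groups overlapped, since control replicate 4 reached 4.33 CPM and CML replicate 4 was at 3.92 CPM. Its difference was 0.25 (SE 0.105; limma with Benjamini-Hochberg adjustment, adjusted p = 0.635, and 0.278 without control replicate 4). For GINS4 the means were 10.1 ± 0.621 and 11.5 ± 0.988 CPM, a difference of 0.17 (limma, adjusted p = 0.630). GINS1 and GINS2 differed by 0.07 and 0.05 (adjusted p = 0.902 and 0.995, limma), and GINS2, at 30 to 47 reads per library, was the least deeply measured of all 52 genes. Set per kilobase of transcript, CDC45 was 2.08 to 2.21 times the mean level of the 4 GINS genes in the control libraries and 2.50 to 2.78 times in the CML libraries. Against the mean of MCM2 to MCM7, its level per kilobase was 22.7% to 26.2% in control and 29.3% to 34.6% in CML-exposed cells. In both ratios the groups did not overlap. CDC45 was picked for these ratios because its difference was the largest of the 52, so they are a description with no test.

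**Figure D2:**
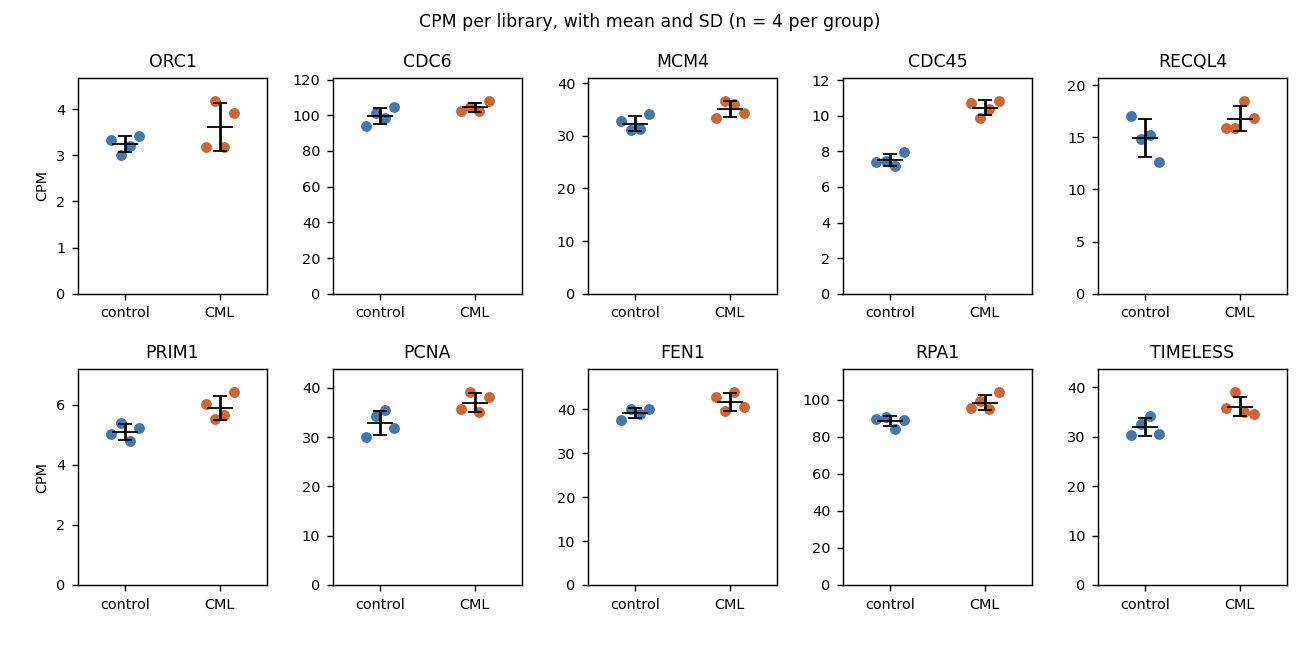
CPM in each library (vertical axes, starting at 0) for the gene with the smallest p in each of 10 role groups, 4 control libraries in blue and 4 CML libraries in orange, with the mean and SD in black. The groups are apart for CDC45 (7.20 to 7.98 against 9.90 to 10.8 CPM), RPA1, TIMELESS and PRIM1, and overlap in the other panels.

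The origin recognition complex, which marks origins and stays bound to them, did not pass the test in any of its 6 genes. Their median difference was 0.03, the lowest of the role groups, and ORC4 had a lower mean with CML by less than 0.01. ORC1, the subunit whose level rises and falls with the cell cycle, stood at 3.34, 3.02, 3.21 and 3.42 CPM in control replicates 1 to 4 and at 3.18, 4.17, 3.17 and 3.92 CPM in CML replicates 1 to 4. CML replicates 2 and 4 were above all controls, and CML replicates 1 and 3 lay within them. Its difference was 0.11 (SE 0.087, limma with Benjamini-Hochberg adjustment, adjusted p = 0.879). ORC6 differed by 0.12, and ORC2, ORC3 and ORC5 by 0.01, 0.02 and 0.04 (limma adjusted p from 0.897 to 1.00).

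The 3 loading factors had a higher mean with CML (median 0.10), and 0 of them passed limma's test at FDR 0.3 or at an unadjusted p of 0.05. CDC6, the ATPase that closes the ORC ring around DNA, was the most abundant of them and stood at 93.9, 101, 98.6 and 104 CPM in control replicates 1 to 4 and at 102, 105, 102 and 108 CPM in CML replicates 1 to 4. Control replicate 4 reached into the CML range. Its difference was 0.07 (SE 0.035, 95% interval −0.02 to 0.15; limma with Benjamini-Hochberg adjustment, adjusted p = 0.747), an interval that lies below a 1.25-fold rise. CDT1, which brings the MCM ring to CDC6, was the most scattered gene in control cells, at 6.20, 6.50, 3.33 and 3.08 CPM, against 6.83, 5.46, 4.33 and 4.48 CPM with CML. In both groups replicates 1 and 2 were above replicates 3 and 4, more widely so in control cells. The interval of CDT1 ran from −0.43 to 0.75, so that neither a rise nor a fall could be detected. Geminin (GMNN) averaged 18.7 ± 1.95 CPM in control cells and 20.1 ± 1.2 CPM with CML (SD, n = 4), a difference of 0.10 (limma, adjusted p = 0.877).

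All 6 genes of the MCM2-7 ring had a higher mean with CML, by 0.04 to 0.16 (median 0.10). MCM2 stood at 25.3, 27.3, 27.0 and 24.4 CPM in control replicates 1 to 4 and at 28.7, 27.8, 32.8 and 27.8 CPM in CML replicates 1 to 4. The groups did not overlap, with CML replicate 3 the highest. Its difference was 0.16 (SE 0.063, limma with Benjamini-Hochberg adjustment, adjusted p = 0.595), and it passed the FDR when a trend with GC content and transcript length was removed from each library (adjusted p = 0.247). MCM4, which had the smallest p of the ring, stood at 32.7, 31.1, 31.3 and 34.1 CPM in control cells and at 33.5, 36.6, 36.1 and 34.3 CPM with CML, and the groups overlapped through control replicate 4. The difference of MCM4 was 0.12 (SE 0.041, limma with Benjamini-Hochberg adjustment, adjusted p = 0.553, and 0.289 without control replicate 4). MCM7 (126 ± 4.76 against 129 ± 5.30 CPM) and MCM3 (67.4 ± 3.84 against 70.2 ± 0.974 CPM) were the most abundant, with intervals of −0.05 to 0.13 and −0.04 to 0.15. MCM5 differed by 0.16 and MCM6 by 0.08 (limma, adjusted p = 0.821 and 0.870). Although the proteins form a ring with 1 copy of each, the transcripts were unequal. Per kilobase, MCM7 stood at 51.0 CPM in control cells, MCM3 at 22.0, MCM4 at 7.96, MCM2 at 7.57, MCM5 at 5.57 and MCM6 at 5.17. An intron of MCM7 carries a cluster of microRNAs, of which MIR93 overlaps it in the annotation, and AP4M1 overlaps it on the opposite strand.

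Of the factors that fire origins, all 6 had a higher mean with CML (median 0.06) and 0 passed limma's test at FDR 0.3 or at an unadjusted p of 0.05. RECQL4, a helicase that also helps load the CMG, stood at 17.1, 14.8, 15.2 and 12.7 CPM in control replicates 1 to 4 and at 15.9, 15.9, 18.5 and 16.8 CPM in CML replicates 1 to 4. Control replicate 1 lay within the CML range, and the difference was 0.16 (SE 0.092, limma with Benjamini-Hochberg adjustment, adjusted p = 0.778). The kinase CDC7 and its activator DBF4 differed by 0.04 and 0.06, and the scaffolds TOPBP1 and TICRR by 0.06 and 0.05 (limma, adjusted p from 0.943 to 0.986). MCM10, which starts the assembled helicase, ranged from 4.14 to 7.01 CPM in control cells alone and from 5.0 to 6.84 CPM with CML.

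The 10 polymerase and primase genes had a median difference of 0.09, with 9 higher and 0 past the FDR in limma (2 at an unadjusted p under 0.05). PRIM1, the catalytic subunit of primase, stood at 5.01, 5.38, 4.78 and 5.21 CPM in control replicates 1 to 4 and at 6.02, 5.51, 5.67 and 6.41 CPM in CML replicates 1 to 4. The groups did not overlap, and the lowest CML library exceeded the highest control library by a few reads' worth. The difference of PRIM1 was 0.18 (SE 0.061, limma with Benjamini-Hochberg adjustment, adjusted p = 0.531). PRIM1 shares exons with NACA in the annotation, and its values were whole numbers of reads in 6 of 8 libraries only, so that reads may have been split between them. POLE2, an accessory subunit of the leading-strand polymerase, averaged 3.49 ± 0.664 CPM in control cells and 4.33 ± 0.261 CPM with CML (SD, n = 4), a difference of 0.26 (SE 0.105; limma, adjusted p = 0.626). Control replicate 1, at 4.47 CPM, stood apart from the other controls at 3.02 to 3.25 CPM, and without it the adjusted p of POLE2 was 0.269. POLA1, the catalytic subunit of polymerase α, and POLE, that of polymerase ε, differed by 0.16 and 0.09. POLD1, that of polymerase δ, was lower with CML by 0.02, with an interval of −0.37 to 0.33. POLA2 ranged from 2.69 to 6.52 CPM, and its reads were whole in none of the libraries. The other 4 genes, PRIM2, POLE3, POLD2 and POLD3, differed by 0.05 to 0.09, and POLD2 was the most abundant of the 52 genes at 80.8 CPM per kilobase in control cells.

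PCNA, the sliding clamp that holds polymerases to DNA and a widely used marker of replicating cells, stood at 29.99, 34.2, 35.4 and 31.8 CPM in control replicates 1 to 4 and at 35.8, 39.1, 35.0 and 38.1 CPM in CML replicates 1 to 4. Control replicate 3 lay just above the lowest CML library. Its difference was 0.17 (SE 0.060, limma with Benjamini-Hochberg adjustment, adjusted p = 0.554), and it passed the FDR with GC content and length removed (adjusted p = 0.255). The RFC1 to RFC5 genes encode the loader that opens the clamp. RFC3 differed by 0.16 (limma, adjusted p = 0.738), and by 0.09 without CML replicate 4, its highest library at 13.6 CPM. RFC1, RFC2, RFC4 and RFC5 differed by at most 0.06 in either direction.

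FEN1, the flap nuclease that trims Okazaki fragments, stood at 37.6, 40.0, 39.0 and 40.1 CPM in control replicates 1 to 4 and at 42.7, 39.5, 43.8 and 40.4 CPM in CML replicates 1 to 4. CML replicate 2 fell among the controls, and the difference was 0.08 (SE 0.039, 95% interval −0.01 to 0.17; limma with Benjamini-Hochberg adjustment, adjusted p = 0.693). LIG1, the ligase that seals the fragments, was at 18.5 ± 1.11 CPM in control cells and 18.6 ± 0.887 CPM with CML (SD, n = 4), with an interval of −0.12 to 0.13. DNA2, a nuclease for long flaps, differed by 0.12 (limma, adjusted p = 0.889).

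RPA1, the large DNA-binding subunit of RPA, stood at 89.3, 90.3, 84.3 and 89.0 CPM in control replicates 1 to 4 and at 95.5, 99.0, 94.9 and 104 CPM in CML replicates 1 to 4. No CML library was below 94.9 CPM and no control above 90.3 CPM. The difference of RPA1 was 0.15, or 11.4% (SE 0.035, 95% interval 0.07 to 0.24; limma with Benjamini-Hochberg adjustment, adjusted p = 0.314), just outside the FDR of 0.3. It passed in 4 of 17 other settings, at adjusted p-values between 0.043 and 0.561 over all of them, and 1394 to 1850 reads per library made it one of the more precisely measured genes. RPA2 and RPA3, the smaller subunits, differed by 0.06 and 0.05 (limma, adjusted p = 0.959 and 0.897). SMYD4 overlaps exons of RPA1 on the opposite strand.

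All 4 fork protection genes had a mean that was higher with CML, or level in the case of TIPIN (median 0.13). TIMELESS, which couples the helicase to the polymerases, stood at 30.4, 32.5, 34.2 and 30.5 CPM in control replicates 1 to 4 and at 35.8, 38.9, 34.9 and 34.7 CPM in CML replicates 1 to 4. The groups did not overlap, although CML replicate 4 exceeded control replicate 3 only narrowly. The difference of TIMELESS was 0.17 (SE 0.052, 95% interval 0.05 to 0.30; limma with Benjamini-Hochberg adjustment, adjusted p = 0.469, and 0.137 with GC content and length removed). TIPIN, with which TIMELESS forms a stable pair, stood at 8.11 ± 0.857 CPM in control cells and at 8.12 ± 0.613 CPM with CML (SD, n = 4). CLSPN, which relays fork stalling to the checkpoint, differed by 0.16 and WDHD1, which links the helicase to polymerase α, by 0.09 (limma, adjusted p = 0.897 and 0.760).

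**Figure D3:**
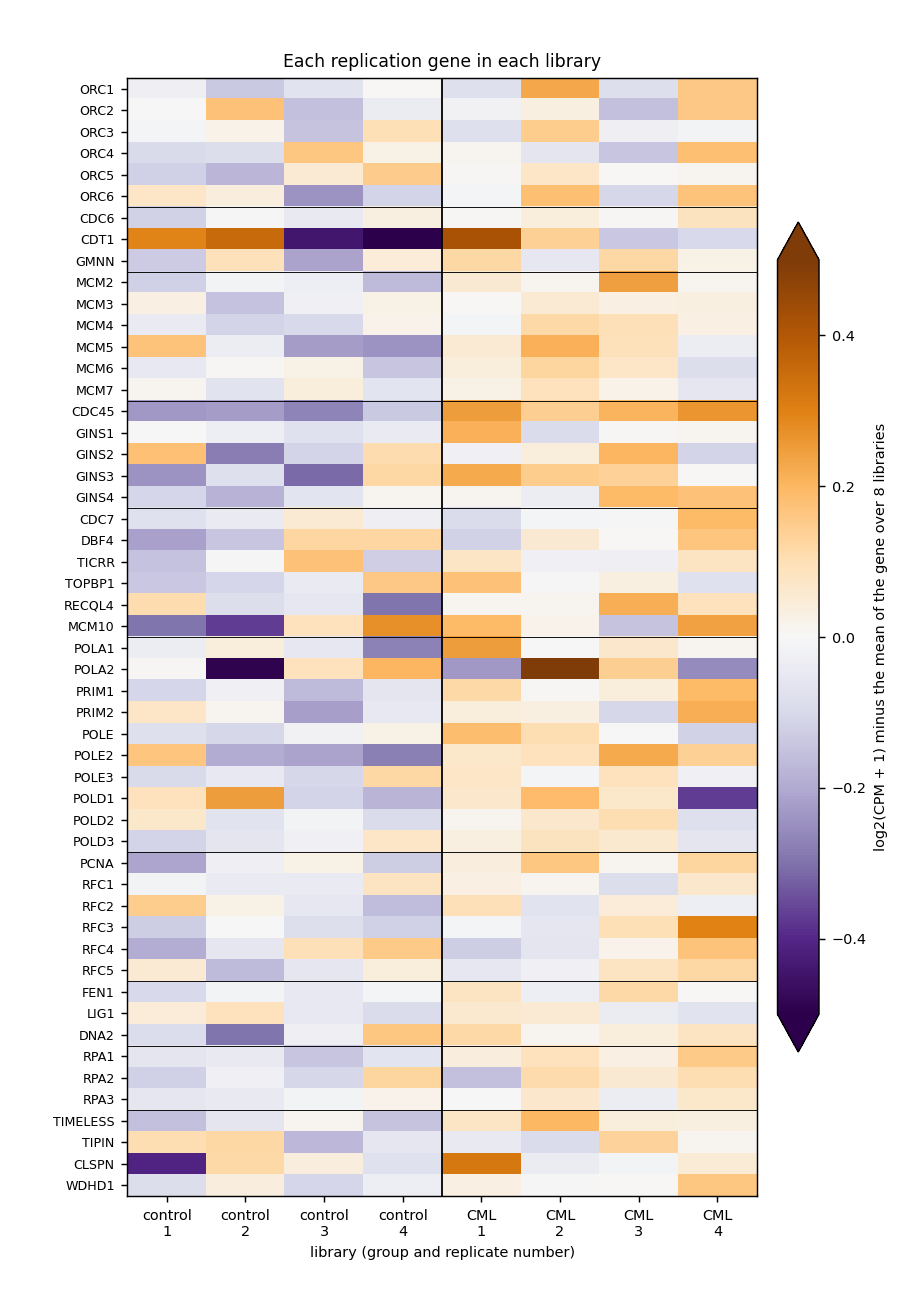
Each of the 52 genes (rows, in role groups parted by lines) in each of the 8 libraries (columns), as its log2(CPM + 1) minus the mean of the gene over the 8 libraries. CDC45 is low in all 4 control and high in all 4 CML libraries, while CDT1, MCM10, POLA2, POLD1 and CLSPN vary widely within the groups.

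Depth set the counting error of each gene, which was only part of the spread between replicates. The 52 genes had 30 to 2590 reads per library, and the coefficient of variation expected from counting ranged from 2.11% to 15.7%, with a median of 5.64%. Between replicates the median coefficient of variation was 7.40% in control and 7.13% in CML-exposed cells, and 12 genes had a control value more than 2-fold above the counting value. Levels per kilobase of transcript spanned from 0.886 CPM for GINS2 to 80.8 CPM for POLD2 in control cells. TICRR, CLSPN and ORC1 lay near the lower end, at 0.947, 0.988 and 1.04 CPM per kilobase, and MCM7, POLE3, RPA2 and PCNA at the upper end, at 51.0, 45.5, 29.9 and 25.7.

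**Figure D4:**
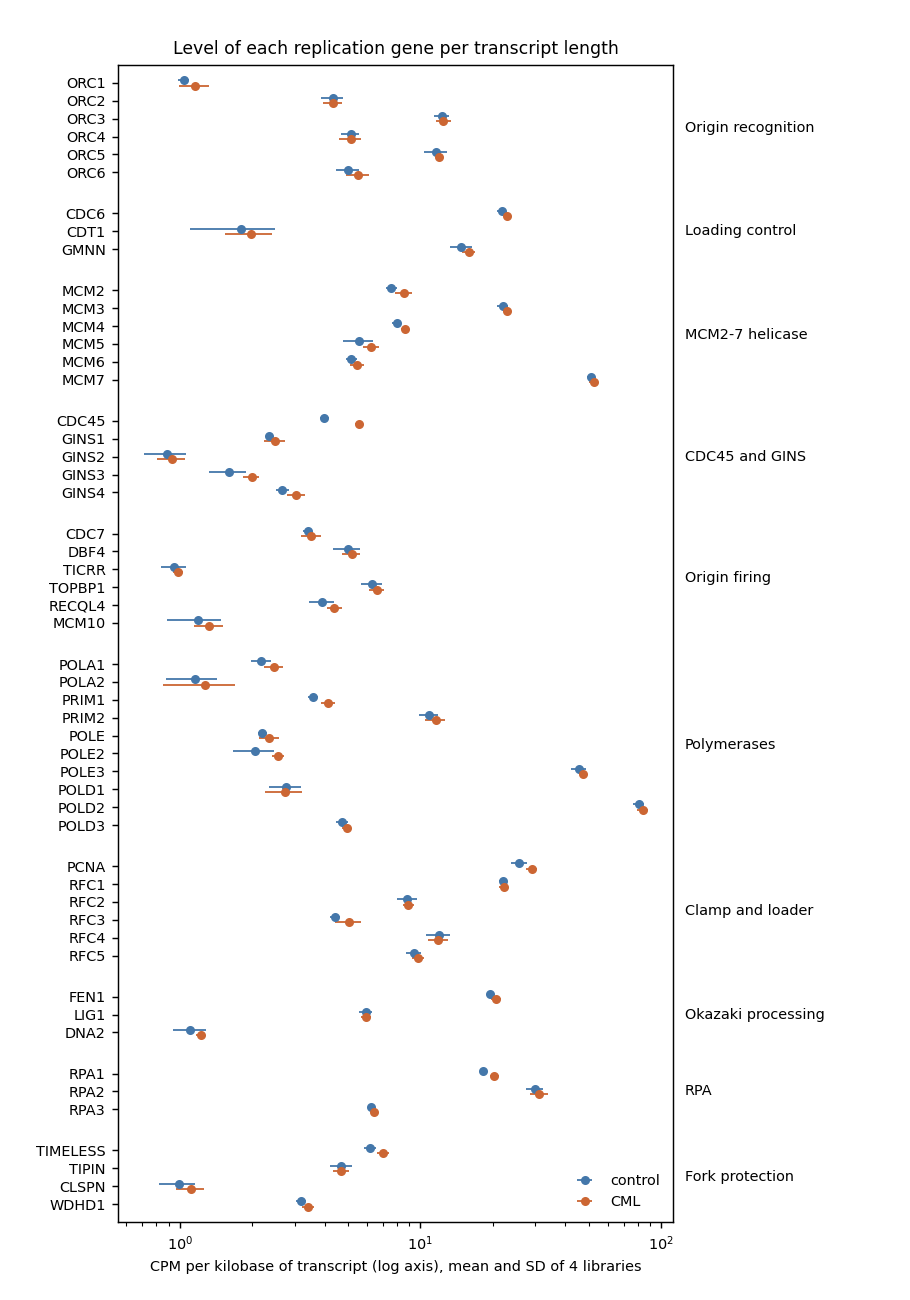
Level of each of the 52 genes in CPM per kilobase of transcript (horizontal log axis), mean and SD of 4 control (blue) and 4 CML (orange) libraries, grouped by role. Subunits of one complex differ in level by far more than the groups do, as from 5.17 for MCM6 to 51.0 for MCM7 in control cells, and only CDC45 shows a gap between the groups that is wide against its SD and passed the FDR.

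The difference was set beside the E2F letters. The 22 genes with the letters had a median difference of 0.08 (0.00 to 0.26) and the 22 without them 0.06 (−0.02 to 0.43). Of the 5 genes whose groups did not overlap, MCM2 held the letters and CDC45, RPA1, TIMELESS and PRIM1 did not. This describes the windows and the exact letters searched, and was not tested. Genes without these letters may hold other forms of an E2F site.

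Replicate 4 of each group was compared with GC content. Over the 52 genes, the rank correlation between GC content and the deviation of replicate 4 from the other libraries of its group was −0.305 in the control and −0.588 in the CML group. For replicates 1 to 3 it was −0.030 to 0.334 in the control and 0.133 to 0.293 in the CML group. In control replicate 4 the 26 genes of higher GC content and the 26 of lower GC content both had a median deviation of 0.03. In CML replicate 4 the 26 genes of higher GC content had a median deviation of −0.06 and the 26 of lower GC content one of 0.06, on the log2(CPM + 1) scale. The difference between the groups had a rank correlation of 0.085 with GC content over the same 52 genes. With GC content and length removed from every library, 5 of the 52 genes passed the FDR as higher with CML (CDC45, RPA1, TIMELESS, MCM2 and PCNA), where 4.24% of the 12978 genes in that fit passed, and 2 of the 52 passed an adjusted p of 0.05 (CDC45 and RPA1), where 0.979% did. Leaving out control replicate 4 gave 4 of the 52 genes past the FDR (CDC45, RPA1, MCM4 and GINS3), where 3.91% of all genes passed in that fit, and leaving out CML replicate 4 gave 1, where 0.595% did. Over all fits that left out 1 library the adjusted p of CDC45 was 0.0689 to 0.245 (limma).

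**Figure D5:**
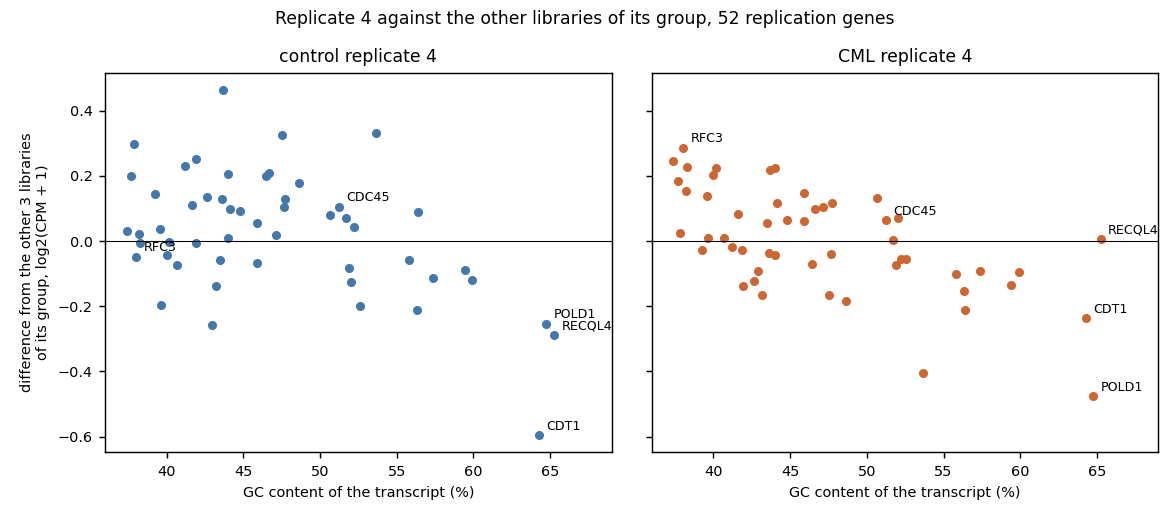
Deviation of replicate 4 from the other 3 libraries of its group in log2(CPM + 1) (vertical axis) against the GC content of the transcript in percent (horizontal axis), for the 52 genes, in the control group (left) and the CML group (right). Of the 26 genes of higher GC content, 12 lie below 0 in the control and 16 in the CML panel, with rank correlations of −0.305 and −0.588 over the 52 genes.

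Genes of the wider replication machinery were examined beside the 52. Of 52 such genes, which include checkpoint, chromatin assembly, cyclin and topoisomerase genes, 44 had a higher mean with CML (median 0.08), 3 passed the FDR in limma as higher and 0 as lower, and 12 had an unadjusted p under 0.05. Over all genes, 0.674% passed as higher and 7.66% had an unadjusted p under 0.05. Cyclin A2 (CCNA2), which drives S phase and entry into mitosis, averaged 32.2 ± 1.94 CPM in control cells and 41.6 ± 1.40 CPM with CML (SD, n = 4). Its difference was 0.36 (limma with Benjamini-Hochberg adjustment, adjusted p = 0.0897), and it passed in every setting tried. POLE4, a small subunit of polymerase ε, differed by 0.22 and topoisomerase TOP2A by 0.25 (limma, adjusted p = 0.269 and 0.293), and both lost the call in most of the fits that left out a library. Among 19 genes of the E2F and RB families and their partners, 13 had a higher mean (median 0.03), 6 had an unadjusted p under 0.05 and 1 passed, FOXM1, the activator of G2/M genes, at 49.0 ± 1.64 against 57.9 ± 1.34 CPM (0.24, limma adjusted p = 0.0889, and 0.306 without CML replicate 2). E2F8 and MYBL2 differed by 0.29 and 0.40 and did not pass (limma, adjusted p = 0.485 and 0.533). A list of 12 genes of arrest and G1 control held inhibitors of cyclin-dependent kinases, the D-type cyclins, GADD45A and BTG2. Of these 12 genes, 9 had a higher mean (median 0.04) and 0 passed limma's FDR. The 1 with an unadjusted p under 0.05 in limma was the D-type cyclin CCND1, which is not a marker of arrest. CCND1, CDKN1A and GADD45A differed by 0.06, 0.05 and 0.10.

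Markers of G2 and mitosis moved in the same libraries. Of 25 such genes, 24 had a higher mean with CML, with a median difference of 0.24, and 9 passed the FDR in limma, all higher, against 0.674% of all genes. These were the kinetochore gene NDC80 (0.35), the proliferation marker MKI67 (0.30), UBE2C (0.27), cyclin B1 (CCNB1, 0.28), the checkpoint kinases BUB1 (0.25) and TTK (0.32), the spindle genes KIF20A (0.30) and TPX2 (0.26), and ANLN (0.30), with limma adjusted p-values from 0.0802 to 0.179. The summed level of the 25 genes was 1182 to 1306 CPM in control and 1436 to 1493 CPM in CML-exposed cells, without overlap. The number that passed fell to 3 without CML replicate 2, to 4 without CML replicate 3 and to 5 without control replicate 2, and rose to 19 without control replicate 4, and NDC80, MKI67 and UBE2C passed in each of these. The median of 0.24 of these G2/M genes stands beside 0.08 for the 52 replication genes, and the difference between the lists was not tested. What part the share of cells in G2 or mitosis had in the values of the replication genes was not tested.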

How the data were processed

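RNA-Seq libraries of 4 control and 4 CML-exposed cultures were grouped by their titles. The authors deposited CPM values scaled with TMM factors, 1 column per library, in 17681 rows. The submitters' processing notes name edgeR and hg38. The aligner and the counting tool for these libraries are not given in the sources used here, and the labels give the instrument as NextSeq in one field and HiSeq in another. Among entries above 0, with the more abundant genes left out, 84.4% to 85.5% lay on steps of 1 read (within 0.02 reads). The counts behind the values were thus estimates, and no count test was run. Depth was 16161801 to 18954731 estimated reads. Intervals from reads cover counting error only.

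Rows of one symbol were averaged (17649 genes, 32 symbols with more than 1 row). log2(CPM + 1) was compared with limma 3.58.1 in R 4.3.3 (variance trend, no covariates, 2-sided, Benjamini-Hochberg adjustment over all genes, FDR 0.3 and 0.05). The fit was also run on simulated data with independent noise in each gene and library. That simulation held no deviations linked to GC content, so it could not show how the FDR holds with them. Fold changes on this scale understate the change of low genes. Lengths and GC content came from GENCODE transcripts and gene positions and promoters from RefSeq (GRCh38.p14). Every one of the 52 genes is accounted for, and values per library are given for each with an adjusted p under 0.3 and for the gene with the smallest p in each of 10 role groups. Of the other lists, the 3 genes with the smallest p and those past the FDR are named. Other genes are given with values as well, chosen after their values were seen, among them MCM2, GINS3, GINS4, POLE2, CDT1, GMNN, MCM3, MCM7, LIG1 and TIPIN. The genes and lists were chosen with earlier results of these data known. The alternatives tried were separate rows per symbol, a minimum mean of 1 CPM, a pseudocount of 0.1, median centring, quantile normalization, no variance trend, removal of GC content and length, the replicate number as a block, and each library left out in turn. Plots were made in Python 3.11.15 (matplotlib 3.10.9).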

Additional observations from a re-analysis of the deposited data

Results flagged for a closer look

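In 3 of 106 groups of 4 libraries (the 52 genes and their summed level, in each group), the highest library lay far from the other 3 by Dixon's test at 95%, where chance gives about 1 in 20 groups, or 5.3. ORC5 stood at 23.8 CPM in CML replicate 2 and at 22.6 to 22.7 CPM in the other CML libraries. POLE2 stood at 4.47 CPM in control replicate 1 and at 3.02 to 3.25 CPM in the other controls. The summed level of the 52 genes was 1479 CPM in control replicate 4 and 1439 to 1441 CPM in the other controls, and control replicate 4 was the highest control library for 20 of the 52 genes. Its total over all rows, 1010400 CPM, was also the highest of the controls.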

How the results depend on the processing

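Of 17 alternatives, CDC45 passed the FDR in all, and 8 of the 52 genes (15.4%) passed in at least 1, as did 8.04% of all 17649 genes and 9.75% of those averaging 1 CPM or more. The number of the 52 that passed was 2 with a minimum mean of 1 CPM and 5 with GC content and length removed, with or without the block. Their median difference was 0.062 with median centring and 0.065 with GC content and length removed. Over the table, 73 genes passed with median centring, 874 with GC content and length removed and 924 when the block was added. Of the wider replication genes, 1 passed with median centring and 11 with GC content and length removed, with or without the block. With GC content and length removed, with or without the block, 22 G2/M genes passed. Leaving out 1 library at a time gave 20 to 690 genes over the table, 1 to 4 of the 52 genes past the FDR, 46 to 49 of them higher, 6 to 11 of them without overlap and a median of 0.067 to 0.098, and 1 to 9 of the wider replication and 3 to 19 of the G2/M genes. The highest counts were without control replicate 4. Leaving out a library can only keep or raise the number of genes without overlap, which was 5 with all libraries. The share of all genes without overlap was not determined for these fits, so the rise in that number says nothing particular to the 52 genes.

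Deviations from the group mean, over genes averaging 1 CPM or more, were correlated between the control and CML libraries of the same number. The correlations were 0.199, −0.030, −0.065 and 0.334 for replicates 1 to 4. Replicate 4 also deviated with GC content in the same direction in both groups. Whether the replicate numbers pair the samples could not be told from these values, and the main fit took no pairing. With a replicate block in the fit, 1 of the 52 genes passed (CDC45, adjusted p = 0.252 in limma), with the median at 0.081. The share of all genes that passed in that fit is not given here.

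Small differences changed sign without passing the test. With median centring, ORC2 was at −0.011, ORC3 at −0.0029, RFC1 at −0.011, LIG1 at −0.015 and TIPIN at −0.017. With quantile normalization, ORC2 was at −0.00046, RFC1 at −0.0096, LIG1 at −0.0038 and TIPIN at −0.0027. With GC content and length removed, with or without the block, ORC2 was at −0.014, ORC3 at −0.0076, RFC1 at −0.010 and TIPIN at −0.022. Without 1 library, the range was −0.0066 to 0.107 for DBF4, −0.088 to 0.097 for POLD1, −0.042 to 0.068 for ORC2, −0.029 to 0.053 for ORC3, −0.066 to 0.049 for ORC4, −0.0055 to 0.102 for ORC5, −0.030 to 0.121 for GINS2, −0.067 to 0.198 for POLA2, −0.011 to 0.039 for RFC1, −0.029 to 0.073 for RFC2, −0.065 to 0.051 for RFC4, −0.026 to 0.034 for LIG1, −0.054 to 0.043 for TIPIN and −0.014 to 0.080 for CDC7. The cause was not tested. With 4 libraries per group at this depth, the upper 95% limit, turned back into CPM, reached a 1.25-fold rise in 19 of the 52 genes.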
